A study of Arabidopsis thaliana with 9 samples.

Results

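Salicylic acid is a defence hormone that plants build up during infection by biotrophic pathogens. In Arabidopsis most of it is made from chorismate in the plastid, where ICS1 (isochorismate synthase) forms isochorismate and EDS5, a membrane transporter of the plastid envelope, carries it to the cytosol for the last steps. The hormone is perceived by the NPR proteins, and its best known outputs are the pathogenesis-related genes PR1, PR2 and PR5, whose products are secreted. The data described here are the signals of these 5 genes in seedlings of cyp78a5,7, amp1-13 and wild type, 5 of the 22746 probe sets that were tested.

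The 5 probe sets were chosen by gene identity, as ICS1 (AT1G74710, probe set 262177_at), EDS5 (AT4G39030, 252921_at), PR1 (AT2G14610, 266385_at), PR2 (AT3G57260, 251625_at) and PR5 (AT1G75040, 259925_at). The genes themselves were picked with earlier results of these arrays known. All 5 identities came from the gene identifiers in the study's list of genes changed in cyp78a5,7, and none from the platform annotation. That list holds genes selected on the contrast of cyp78a5,7 with wild type on these same arrays, so all 5 were bound to differ there, and the values of that contrast are given as a description with no test. A second list, for amp1-13, was held only as its first 46 genes. PR5 is among them, with another locus identifier beside the same symbol, the single such clash among 34 probe sets found in both lists. Whether ICS1, EDS5, PR1 and PR2 are in the rest of the amp1-13 list is not known here. The p-values given for them in amp1-13 may therefore follow a selection on that contrast.

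The study profiled whole seedlings to ask whether both mutants, which share a shoot meristem phenotype, also share changes in transcript levels. The first genotype, cyp78a5,7, is a double mutant of 2 cytochrome P450 genes obtained by crossing T-DNA insertion lines. By RT-PCR, no transcript of the disrupted gene was detected in seedlings of either parent line. The second, amp1-13, carries a putative null allele of the gene for the carboxypeptidase AMP1, and the third is wild type Col-0, the background of all. Each had 3 biological replicates of seedlings aged 10 days, raised at 26 °C with 16 h of light in multi-well plates of liquid half-strength medium with 1% sucrose, and every group, wild type included, had received 1% DMSO. Both were mutant throughout the plant. As these were bulk samples, a change in the share of cells that express a gene and a change in RNA per cell cannot be told apart.

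RNA was hybridised to 9 one-colour ATH1 arrays. Signals below are the deposited values on a linear scale, on which the mean of each array without its extreme values was 100.0, and the array medians were 31.19 to 39.01. Arrays of a genotype correlated at 0.964 to 0.991 and arrays of different genotypes at 0.908 to 0.972. CYP78A7 was measured at 27.8 ± 8.29 in cyp78a5,7, 24.3 ± 10.6 in amp1-13 and 11.2 ± 1.65 in wild type (SD, n = 3 each), where its probes lie relative to the insertion was not given, and no probe set could be named for CYP78A5 or AMP1. Of 18 leaf, root and meristem marker genes 6 were named. The leaf marker RCA lay at 2161 to 2789 in cyp78a5,7, 3035 to 3825 in amp1-13 and 1898 to 2701 in wild type. The summed signal of 3 root markers, nearly all from PYK10, was 3634 to 4540 in cyp78a5,7, 4374 to 4925 in amp1-13 and 4708 to 5266 in wild type. That of the meristem markers CLV3 and UFO was 1.358 to 5.926 in cyp78a5,7, 2.063 to 12.14 in amp1-13 and 1.469 to 8.281 in wild type, with no marker value at 0. RCA was thus higher in amp1-13 than in wild type on every array, and the root marker WER was lower in both mutants. WER averaged 20.23 in cyp78a5,7, 21.0 in amp1-13 and 50.93 in wild type, and every array of either mutant lay below every wild type array. Its log2 fold change was -0.92 in cyp78a5,7, whose list holds WER, and -0.93 in amp1-13 (limma adjusted p = 0.0197), both under 2-fold. PYK10 stood at 0.10 (limma adjusted p = 0.553) in cyp78a5,7 after normalization and EXPA7 at -0.01 (0.988). In amp1-13 PYK10 stood at 0.09 (limma adjusted p = 0.641) and EXPA7 at 0.18 (0.813). The part of these markers in the results below was not tested.

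ICS1 and EDS5, the enzyme and the transporter of the isochorismate route, were highest in cyp78a5,7, and amp1-13 lay slightly above wild type. ICS1 gave signals of 157.1, 125.3 and 120.5 on the 3 cyp78a5,7 arrays, 56.21, 61.54 and 59.69 on the amp1-13 arrays, and 28.31, 46.4 and 44.26 on the wild type arrays. The genotypes did not overlap, and the lowest cyp78a5,7 value stood well above the highest value of either other genotype. EDS5 had signals of 175.6, 240.3 and 239.5 in cyp78a5,7, 85.29, 65.13 and 81.25 in amp1-13, and 49.52, 64.07 and 53.47 in wild type. Here too the order held on every array, but amp1-13 array 2 exceeded wild type array 2 only narrowly. Means were 134.3 ± 19.9 for ICS1 in cyp78a5,7, 59.14 ± 2.71 in amp1-13 and 39.66 ± 9.88 in wild type (SD, n = 3 each). For EDS5 they were 218.5 ± 37.1 in cyp78a5,7, 77.22 ± 10.7 in amp1-13 and 55.68 ± 7.52 in wild type (SD, n = 3 each).

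The PR genes had low signals in wild type and higher signals in both mutants. PR1, a small secreted protein widely used as a marker of salicylic acid responses, was measured at 86.3, 150.9 and 114.5 in cyp78a5,7, 36.15, 67.68 and 84.11 in amp1-13, and 12.98, 16.54 and 12.55 in wild type. The mutants came close to each other, since the highest amp1-13 value lay just under the lowest cyp78a5,7 value, while wild type stood far below both. PR2, a beta-1,3-glucanase that acts on fungal cell walls, was at 109.7, 98.75 and 111.4 in cyp78a5,7, 16.27, 47.93 and 37.66 in amp1-13, and 1.196, 5.749 and 1.774 in wild type. In cyp78a5,7 its arrays lay close together, whereas in amp1-13 array 1 was far below the other arrays of that genotype. Mean signals of PR1 were 117.2 ± 32.4 in cyp78a5,7, 62.65 ± 24.4 in amp1-13 and 14.02 ± 2.19 in wild type (SD, n = 3 each). Those of PR2 were 106.6 ± 6.87 in cyp78a5,7, 33.95 ± 16.2 in amp1-13 and 2.906 ± 2.48 in wild type (SD, n = 3 each).

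PR5, a thaumatin-like protein, had another order, with amp1-13 above cyp78a5,7. Its signals were 128.1, 56.37 and 97.14 in cyp78a5,7, 146.8, 160.9 and 167.0 in amp1-13, and 16.25, 17.56 and 13.01 in wild type. The amp1-13 arrays were all above the cyp78a5,7 arrays, which were themselves spread widely. The means were 93.88 ± 36.0 in cyp78a5,7, 158.2 ± 10.4 in amp1-13 and 15.61 ± 2.34 in wild type (SD, n = 3 each). PR5 was therefore the single gene of the 5 whose highest level was in amp1-13.

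**Figure D1:**
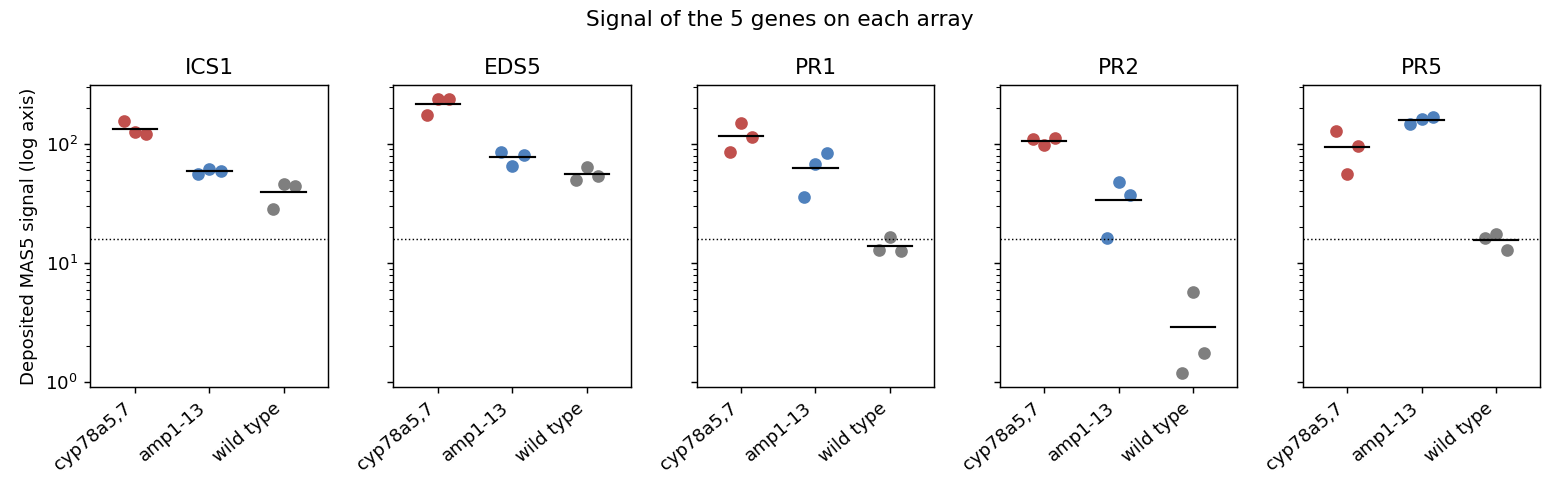
Deposited signal of ICS1, EDS5, PR1, PR2 and PR5 on a log axis, with 1 point per array, a bar at the mean of each genotype and a dotted line at 16, the offset added before the log2. ICS1, EDS5, PR1 and PR2 are ordered cyp78a5,7, amp1-13, wild type, PR5 is highest in amp1-13 with a mean of 158.2, and all 3 wild type values of PR2 lie under the dotted line.

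The wild type level of the PR genes limits how far their fold changes can be read. All 3 wild type arrays of PR2, 2 of PR1 and 1 of PR5 lay under 16, the constant that was added to every signal before the log2 so that dim probe sets do not give extreme ratios. For ICS1 and EDS5 no array lay under it. Between 34.48% and 38.35% of all probe sets on an array were as dim. Fold changes below come from log2(signal + 16) after quantile normalization of the 9 arrays. They understate the change of such genes and, by less, that of ICS1 and EDS5.

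In cyp78a5,7 against wild type, the contrast that chose the genes, log2 fold changes were 1.39 for ICS1 (SE 0.13), 1.66 for EDS5 (SE 0.14), 2.08 for PR1 (SE 0.25), 2.71 for PR2 (SE 0.22) and 1.72 for PR5 (SE 0.21). A probe set is counted as called where limma's Benjamini-Hochberg adjusted p was below 0.05 and the change reached 2-fold. By this measure 5 of 5 were called higher, as were 4.37% of all probe sets and 79.4% of 1138 other probe sets that the list holds as higher in cyp78a5,7. The 5 also had every cyp78a5,7 array above every wild type array, which was true of 14.0% of all probe sets. Nothing is read from these counts, since the contrast is the one used for the selection. The median log2 fold change was 1.716 over the 5 genes, 1.374 over the 1138 other listed probe sets and -0.024 over all probe sets. With no offset PR2 stood at 5.51 and PR1 at 2.97 on the log2 scale, and with an offset of 64 PR2 stood at 1.35 and PR1 at 1.18, when ICS1 (0.91) and PR5 (0.95) were under 2-fold.

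In amp1-13 PR1 and PR2 rose over wild type and PR5 stood higher still, while ICS1 and EDS5 did not pass the test. This comparison uses mutant arrays that took no part in selecting ICS1, EDS5, PR1 and PR2 for the cyp78a5,7 list, but it uses the same wild type arrays, so low wild type values favour a rise in both mutants. PR1 had a log2 fold change of 1.26 (SE 0.25, 95% interval 0.70 to 1.83, limma adjusted p = 0.017) over wild type. PR2 had one of 1.31 (SE 0.22, 95% interval 0.81 to 1.81, limma adjusted p = 0.00966). These are 2.4-fold and 2.48-fold on the scale with the offset, with 3 of 3 amp1-13 arrays above all wild type arrays for either gene. PR5 had the largest value of the 5, a log2 fold change of 2.42 (SE 0.21) or 5.34-fold, given without a p because PR5 is itself in the amp1-13 list. ICS1 stood at 0.35 (SE 0.13, 95% interval 0.06 to 0.65, limma adjusted p = 0.109). EDS5 stood at 0.29 (SE 0.14, 95% interval -0.02 to 0.60, limma adjusted p = 0.213), so a rise of more than 0.65 for the enzyme or 0.60 for the transporter lay outside these intervals.

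Counted together, 3 of the 5 genes were called higher in amp1-13 and 0 lower, against 1.80% and 0.796% of all probe sets. All 5 had every amp1-13 array above every wild type array, against 15.5% of all probe sets. The nearer comparison is with the 1138 other listed probe sets higher in cyp78a5,7, which share the selection and the wild type arrays: 17.2% of them were called higher in amp1-13 and 60.6% had all 3 amp1-13 arrays above wild type. The median log2 fold change was 1.262 over the 5 genes, 0.536 over those listed probe sets and -0.011 over all. As PR5 was itself selected on this comparison, the count without it is 2 of 4 genes, with a median of 0.809. Whether these 4 genes are in the part of the amp1-13 list that was not held is not known. PR1 no longer passed when wild type replicate 1 (adjusted p = 0.0532) or 3 (0.0707) was left out, nor when amp1-13 replicate 2 (0.0682) or 3 (0.0506) was, all from limma. With an offset of 64 PR1 had a log2 fold change of 0.64 (limma adjusted p = 0.0513) and PR2 one of 0.51 (0.0263), both under 2-fold. With no offset PR1 stood at 1.96 and PR2 at 3.64.

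Set against amp1-13 directly, cyp78a5,7 was higher for ICS1, EDS5, PR1 and PR2 and lower for PR5. As the cyp78a5,7 arrays took part in the choice of the genes, these differences are also described without a test. Log2 fold changes of cyp78a5,7 over amp1-13 were 1.03 for ICS1 (95% interval 0.74 to 1.33) and 1.37 for EDS5 (1.05 to 1.68). They were 0.82 for PR1 (0.25 to 1.39), 1.40 for PR2 (0.90 to 1.89) and -0.70 for PR5 (-1.18 to -0.23). The intervals of ICS1, EDS5, PR1 and PR2 lay above 0 and that of PR5 below it. Of the 5, 3 were called higher (ICS1, EDS5 and PR2) and 0 lower, beside 2.15% and 1.76% of all probe sets, and beside 36.4% and 0.0879% of the 1138 other listed probe sets. The arrays of cyp78a5,7 were all above those of amp1-13 for 4 genes, as for 12.6% of all and 69.4% of the listed probe sets. For PR5 they were all below, as for 17.6% of all probe sets and 1.23% (14) of the listed ones. With an offset of 64 only EDS5 was called, with no offset PR2 was not (1.86), and with the values as deposited ICS1 was not (0.99), which leaves 2 genes called in either case. Without cyp78a5,7 replicate 1, ICS1 stood at 0.93, under 2-fold, and PR1 at 1.01.

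**Figure D2:**
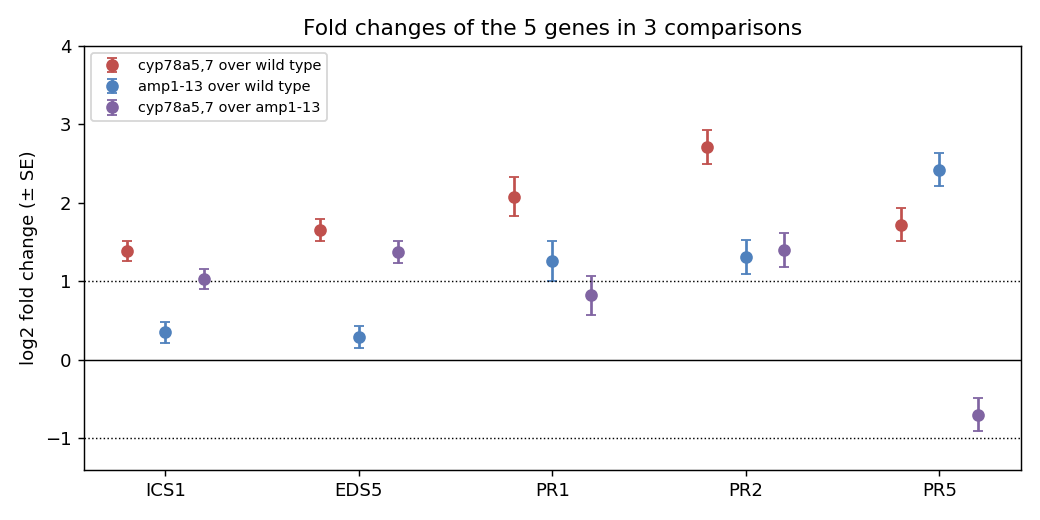
Log2 fold change of the 5 genes, with limma's SE as error bars, in cyp78a5,7 over wild type, amp1-13 over wild type and cyp78a5,7 over amp1-13; dotted lines mark 2-fold. ICS1 and EDS5 lie at 0.35 and 0.29 in amp1-13, under the dotted line, whereas PR1, PR2 and PR5 lie above it at 1.26, 1.31 and 2.42.

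**Figure D3:**
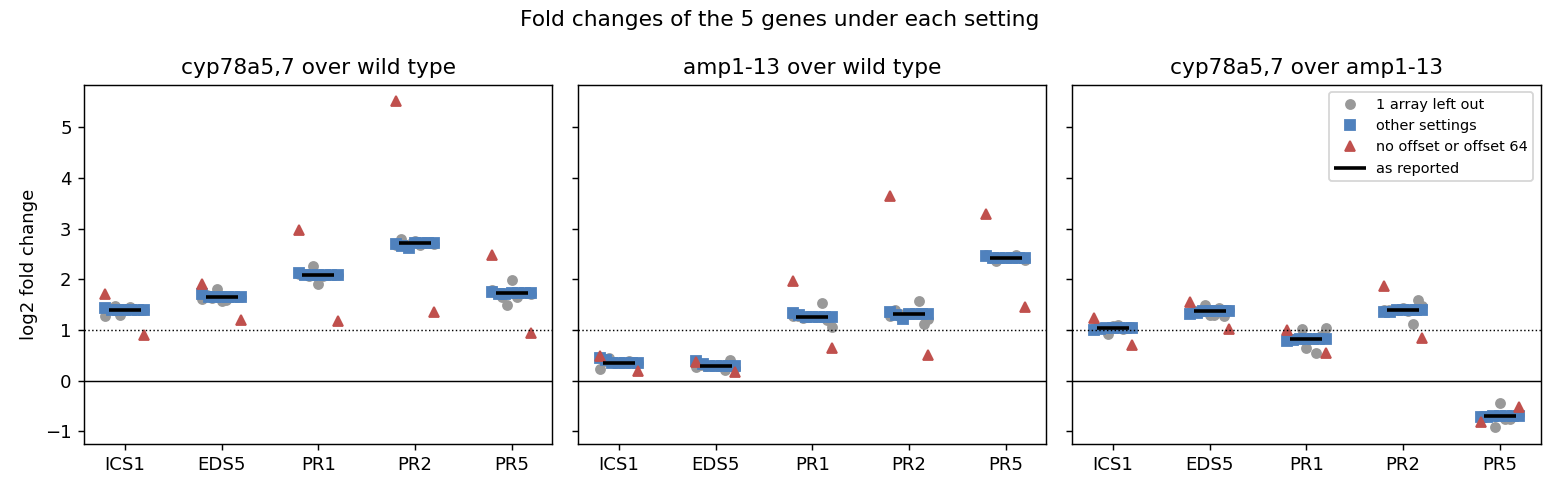
Log2 fold change of each gene in the same 3 comparisons under every setting tried, with black bars for the values as reported, grey points for fits without 1 array, blue squares for other settings and red triangles for no offset or an offset of 64. The offset moved PR2 most, between 1.35 and 5.51 in cyp78a5,7 over wild type, and no setting changed the sign of any of the 5 genes.

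Within a genotype the 5 genes did not vary as a block. After the genotype means had been removed from the log2 values, amp1-13 array 1 was lowest for both PR1 (-0.54) and PR2 (-0.56). That array was also the lowest of its genotype for PR5 (-0.10) and ICS1 (-0.05), by less, while EDS5 had its highest deviation there, 0.14. In cyp78a5,7 array 2 had the highest PR1 (0.36) and the lowest PR5 (-0.52). Over the 9 arrays, which share their normalization, the deviations of the 10 pairs of genes correlated at between -0.66 (EDS5 with PR5) and 0.62 (PR1 with PR2), with -0.55 for ICS1 and EDS5, given as a description of these arrays. Over the values themselves, which also hold the difference between genotypes, ICS1 and EDS5 correlated at 0.93.

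Genes of jasmonate, a hormone of wounding that often opposes salicylic acid, were also read beside the 5 genes, from 6 genes (JAZ1, JAZ5, JAZ10, LOX3, OPR3 and AOC3) chosen with earlier results of these arrays known. Their mean log2 level was 10.22, 10.52 and 10.08 on the cyp78a5,7 arrays, 8.28, 7.14 and 7.15 on the amp1-13 arrays, and 6.62, 6.09 and 5.94 on the wild type arrays. The mean log2 level of PR1, PR2 and PR5 was 6.92, 6.81 and 6.94 in cyp78a5,7, 5.98, 6.57 and 6.60 in amp1-13, and 4.73, 4.79 and 4.64 in wild type. The amp1-13 array with the highest jasmonate level, array 1, was thus the one with the lowest PR level. In cyp78a5,7 this was so for array 2, within a narrow range of PR levels. It was not so in wild type, where array 1 had the highest jasmonate level and array 3 the lowest PR level. For ICS1 and EDS5 the mean log2 level was 7.50, 7.57 and 7.53 in cyp78a5,7, 6.38, 6.25 and 6.38 in amp1-13, and 5.89, 6.06 and 6.09 in wild type. The means of all 3 sets of genes were highest in cyp78a5,7, although PR5 alone was highest in amp1-13. The choice of the 5 genes, named through the cyp78a5,7 list, favours such an order, and that of the 6 jasmonate genes can favour it. A part of either hormone in the other was not tested.

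Other genes around salicylic acid were taken from 9 lists with 99 genes, and 37 of them could be traced to a probe set (38 probe sets). Of these, 27 probe sets are in the study's cyp78a5,7 list and 11 are not, so the share that changed in cyp78a5,7 is raised by the naming. Over all 38 probe sets, 23 were called higher and 2 lower in cyp78a5,7, against 4.37% and 2.64% of all probe sets, with a median log2 fold change of 1.08. In amp1-13, 9 were called higher and 0 lower, against 1.80% and 0.796%, with a median of 0.55. All 9 were among the 27 listed probe sets, whose median was 0.79. The nearer share is 17.2% of the 1138 listed probe sets higher in cyp78a5,7 described above, whose median was 0.536. Those share the selection and the wild type arrays, but the sets are not alike. The 27 include PR1L and AT4G33720, which were lower in cyp78a5,7, and AT4G33720 is among the 9. CYP81F2, also among the 9, is itself in the amp1-13 list, so no excess is read from this count. Among the 11 probe sets outside the list, 1 was called higher in cyp78a5,7, with 0 in amp1-13, and medians of 0.04 and 0.18. The study did not list these as changed in cyp78a5,7 on the same arrays, which by itself favours few calls there. Of the 17 probe sets named by the annotation, a naming that did not use the list, 5 were called higher and 2 lower in cyp78a5,7 (median 0.1). In amp1-13, 1 of the 17 was called higher and 0 lower (median 0.22). The amp1-13 count of 9 was 5 without wild type replicate 3 and 3 without amp1-13 replicate 1. Values in cyp78a5,7 of listed genes are again given without a test. In wild type, 10 of the 38 probe sets had a mean signal under 16, among them PBS3, WRKY28, WRKY38, DLO1, SAG13, FRK1 and NHL10, and their sizes depend on the offset. In cyp78a5,7, DLO1 stood at 5.74 with no offset and 0.61 with an offset of 64, WRKY38 at 4.94 and 1.83, FRK1 at 4.04 and 1.29, and NHL10 at 4.18 and 0.39.

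Of 8 other genes of salicylic acid synthesis 2 were named, and with the offset of 16 0 were called in any comparison. PBS3, which joins isochorismate to glutamate after EDS5 has exported it, was dim, at 16.02, 18.84 and 25.34 in cyp78a5,7, 10.23, 7.76 and 12.42 in amp1-13, and 6.054, 0.213 and 0.3395 in wild type. It had the same order of genotypes as ICS1, at 0.99 on the log2 scale in cyp78a5,7 and 0.49 in amp1-13 (limma adjusted p = 0.1). These sizes are set by the offset. With no offset PBS3 stood at 4.66 in cyp78a5,7, where it met both thresholds of a call, and at 3.57 in amp1-13 (limma adjusted p = 0.118). With an offset of 64 it stood at 0.34 in cyp78a5,7 and 0.15 in amp1-13. EDS5H, the homologue of EDS5, which the list does not hold, followed another pattern. Its signals were 83.99, 68.65 and 55.22 in cyp78a5,7, 112.5, 124.6 and 120.8 in amp1-13, and 68.02, 76.13 and 56.49 in wild type. EDS5H had a log2 fold change of 0.65 in amp1-13 (limma adjusted p = 0.0154), under 2-fold, and of 0.00 in cyp78a5,7 (limma adjusted p = 0.992).

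Among 17 regulators upstream of ICS1, 8 genes with 9 probe sets were named, with 6 probe sets called higher in cyp78a5,7, and 2 in amp1-13. CBP60g and SARD1, related transcription factors that bind the ICS1 promoter, stood at 1.32 and 1.07 in cyp78a5,7. In amp1-13 they stood at 0.79 (limma adjusted p = 0.0589) and 1.03 (limma adjusted p = 0.00362). SARD1 had signals of 93.72, 74.47 and 63.67 in cyp78a5,7, 82.55, 67.24 and 84.55 in amp1-13, and 26.26, 26.82 and 28.32 in wild type, so that the mutants overlapped, which they did not for ICS1. A dimmer probe set of SARD1, with a wild type mean of 8.512, under the offset, gave 0.46 in cyp78a5,7 and 0.51 in amp1-13. With no offset it gave 1.02 and 1.13, and the brighter probe set 1.44 and 1.4. SAG101, a lipase-like partner of EDS1, stood at 1.1 in cyp78a5,7 and 0.22 in amp1-13 (limma adjusted p = 0.259).

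NAC019, NAC055 and NAC072 encode transcription factors that repress ICS1 in response to the jasmonate mimic coronatine. They had log2 fold changes of 2.14, 1.56 and 2.05 in cyp78a5,7. In amp1-13 they stood at -0.03 (limma adjusted p = 0.952), 1.23 (0.0301) and 0.39 (0.346). NAC019 and NAC072 were also higher in cyp78a5,7 than in amp1-13, by 2.17 and 1.66. NAC019 lay at 273.9, 335.3 and 255.4 in cyp78a5,7, 45.24, 56.22 and 57.96 in amp1-13, and 73.76, 43.92 and 38.52 in wild type, so amp1-13 and wild type overlapped. EIN3, another repressor of ICS1 and outside the list, stood at 0.55 in cyp78a5,7 (limma adjusted p = 0.0193), under 2-fold.

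Of 20 receptors and transcription factors of salicylic acid signalling 5 were named, 1 of them (WRKY53) by the annotation. All 5 are in the list, and 5 were called higher in cyp78a5,7, with 3 called higher in amp1-13. NPR3, a salicylic acid receptor that restrains NPR1-dependent genes, had signals of 809.7, 649.8 and 403.8 in cyp78a5,7, 471.1, 257.9 and 310.6 in amp1-13, and 146.6, 120.4 and 106.8 in wild type. The mutants overlapped with each other and both stood above wild type. In cyp78a5,7 it stood at 2.1 on the log2 scale, and in amp1-13 at 1.32 (limma adjusted p = 0.0231). WRKY38 and WRKY18, transcription factors of the defence response, stood at 3.17 and 2.89 in cyp78a5,7, and at 1.53 (limma adjusted p = 0.0324) and 1.76 (0.0124) in amp1-13. WRKY53 and WRKY46 stood at 1.98 and 1.56 in cyp78a5,7, and at 1.25 (limma adjusted p = 0.108) and 1.43 (0.0809) in amp1-13. For NPR1, EDS1, PAD4, PAL1, WRKY70, PRB1 and BG3 no probe set could be named.

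In cyp78a5,7, WRKY46 was no longer called with no offset, with an offset of 64, in a fit of the compared genotypes alone, or if cyp78a5,7 replicate 1 or 2, amp1-13 replicate 2 or 3 or any 1 wild type array was omitted, and WRKY53 if wild type replicate 1 was. Of the amp1-13 calls above, 5 depended on single arrays. NPR3 no longer passed if amp1-13 replicate 1 or 3 or wild type replicate 3 was omitted (adjusted p = 0.0556 to 0.0932 in limma), and WRKY38 if amp1-13 replicate 1 or 3 or any 1 wild type array was (0.0531 to 0.11). WRKY18 failed if amp1-13 replicate 1 (0.051) or wild type replicate 3 (0.0548) was omitted, and NAC055 if amp1-13 replicate 1 or 2 or wild type replicate 1 or 3 was (limma adjusted p = 0.0725 to 0.106). SARD1 stood under 2-fold, at 0.97 to 0.99, if amp1-13 replicate 1 or 3 or wild type replicate 2 was omitted.

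Genes that modify or break down salicylic acid were divided. Of 10 such genes 7 were named, with 4 called higher in cyp78a5,7, and 0 in amp1-13. SOT12, a sulphotransferase that accepts salicylic acid, stood at 2.11 in cyp78a5,7, and DLO1 and DMR6, hydroxylases of salicylic acid, at 1.53 and 1.05. In amp1-13 the values were 0.78 (limma adjusted p = 0.089), 0.48 (0.393) and 0.65 (0.0345), each under 2-fold. UGT76B1, a glucosyltransferase of salicylic acid and isoleucic acid, was the single gene outside the list that was called over wild type. It had signals of 72.35, 154.1 and 277.5 in cyp78a5,7, 72.27, 63.04 and 44.8 in amp1-13, and 31.47, 62.47 and 47.88 in wild type, and a log2 fold change of 1.34 in cyp78a5,7 (limma adjusted p = 0.0341). The cyp78a5,7 arrays of UGT76B1 were spread over a wide range, and the gene did not pass if cyp78a5,7 replicate 2 or 3, amp1-13 replicate 2 or wild type replicate 1 or 3 was omitted (limma adjusted p = 0.0565 to 0.112). Nor was it called with no offset (limma adjusted p = 0.0582), with an offset of 64 (0.0617) or in a fit of the compared genotypes alone (0.0804). UGT74F1, GH3.5 and BSMT1, enzymes that conjugate or methylate salicylic acid, stood at -0.40, -0.39 and 0.04 in cyp78a5,7 and were not called.

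Other genes that respond to salicylic acid or act in systemic resistance were few. LLP1, a lectin-like protein, and GRXC9, a glutaredoxin that binds TGA factors, stood at 1.46 and 3.63 in cyp78a5,7. In amp1-13 they stood at 0.55 (limma adjusted p = 0.0089, under 2-fold) and 1.60, the second without a p because GRXC9 is also in the amp1-13 list; it did not reach the threshold here. SAG13, a senescence-associated dehydrogenase, stood at 1.07 in cyp78a5,7 and at 1.22 in amp1-13 (limma adjusted p = 0.0057). Its wild type signals lay between 0.3323 and 4.469, so this size is set by the offset: in amp1-13 it was 4.53 with no offset and 0.45, under 2-fold, with an offset of 64. SARD4, which acts in pipecolate synthesis and is outside the list, stood at 0.99 in cyp78a5,7 (limma adjusted p = 0.0352), just under 2-fold.

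Relatives of the PR genes had other orders of the genotypes. Of 9 relatives and genes of other PR families 4 were named, with 0 called higher and 2 lower in cyp78a5,7, and 1 higher in amp1-13. PR1L, a homologue of PR1, had signals of 138.3, 213.5 and 82.38 in cyp78a5,7, 329.0, 237.9 and 218.1 in amp1-13, and 308.5, 320.2 and 426.1 in wild type, a log2 fold change of -1.27 in cyp78a5,7. Its order of cyp78a5,7 and wild type was the reverse of that of PR1. AT4G33720, another protein of the PR1 family, stood at 189.7, 301.2 and 241.8 in cyp78a5,7, 1626, 1149 and 1225 in amp1-13, and 619.4, 344.4 and 752.0 in wild type. Between the mutants AT4G33720 differed by -2.44, and its amp1-13 value of 1.34 (limma adjusted p = 0.0166) did not pass if amp1-13 replicate 1 (0.0657) or 2 (0.0512) was omitted. OSM34, an osmotin of the same family as PR5 and outside the list, gave 212.8, 341.1 and 192.5 in cyp78a5,7, 814.6, 424.5 and 611.8 in amp1-13, and 321.6, 243.4 and 542.2 in wild type. OSM34 was lower in cyp78a5,7 than in amp1-13 by limma, with a log2 fold change of -1.31 (adjusted p = 0.0335), the same side as PR5. It did not pass if cyp78a5,7 replicate 1 or 3, amp1-13 replicate 1 or 3 or wild type replicate 1 was omitted (limma adjusted p = 0.0536 to 0.105). PDF1.2A, a defensin of the jasmonate and ethylene branch, was near the bottom of the scale except for a signal of 343.3 on wild type array 3, and was not called.

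Of 12 genes of the endoplasmic reticulum and secretion, which serve the export of PR proteins, 2 were named and 0 called. CRT1B, a calreticulin, stood at 0.10 in cyp78a5,7 and 0.45 in amp1-13, and SEC61A, a translocon subunit, at 0.50 in cyp78a5,7 and 0.09 in amp1-13 (limma adjusted p = 0.0853 to 0.817 over these 4 values). Of 8 genes of the early response to microbial patterns and of camalexin 5 were named, all listed, with 5 called higher in cyp78a5,7 and 2 in amp1-13. FRK1, a receptor kinase used as an early marker, stood at 2.43 in cyp78a5,7 and 0.54 in amp1-13 (limma adjusted p = 0.389). PHI1, a phosphate-induced protein, stood at 3.14 in cyp78a5,7 and rose by 2.1 in amp1-13 (limma adjusted p = 0.00642). CYP81F2, an enzyme of indole glucosinolate modification that is also in the amp1-13 list, had the order of PR5, with 1.82 in cyp78a5,7 and 2.30 in amp1-13. PAD3, which makes camalexin, stood at 1.01 in cyp78a5,7 and 0.12 in amp1-13 (limma adjusted p = 0.788).

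Between the mutants, 6 of the 38 probe sets were called higher in cyp78a5,7 and 2 lower, against 2.15% and 1.76% of all probe sets. All 6 higher ones were among the 27 listed probe sets. The nearer share is 36.4% of the 1138 listed probe sets higher in cyp78a5,7 described above, so no excess is read from this count. The 6 were NAC019, NAC072, WRKY38, SOT12, GRXC9 and FRK1, and the 2 were AT4G33720 and OSM34. The higher count was 2 without amp1-13 replicate 2, and the lower count was 1 if cyp78a5,7 replicate 1 or 3, amp1-13 replicate 1 or 3 or wild type replicate 1 was omitted.

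**Figure D4:**
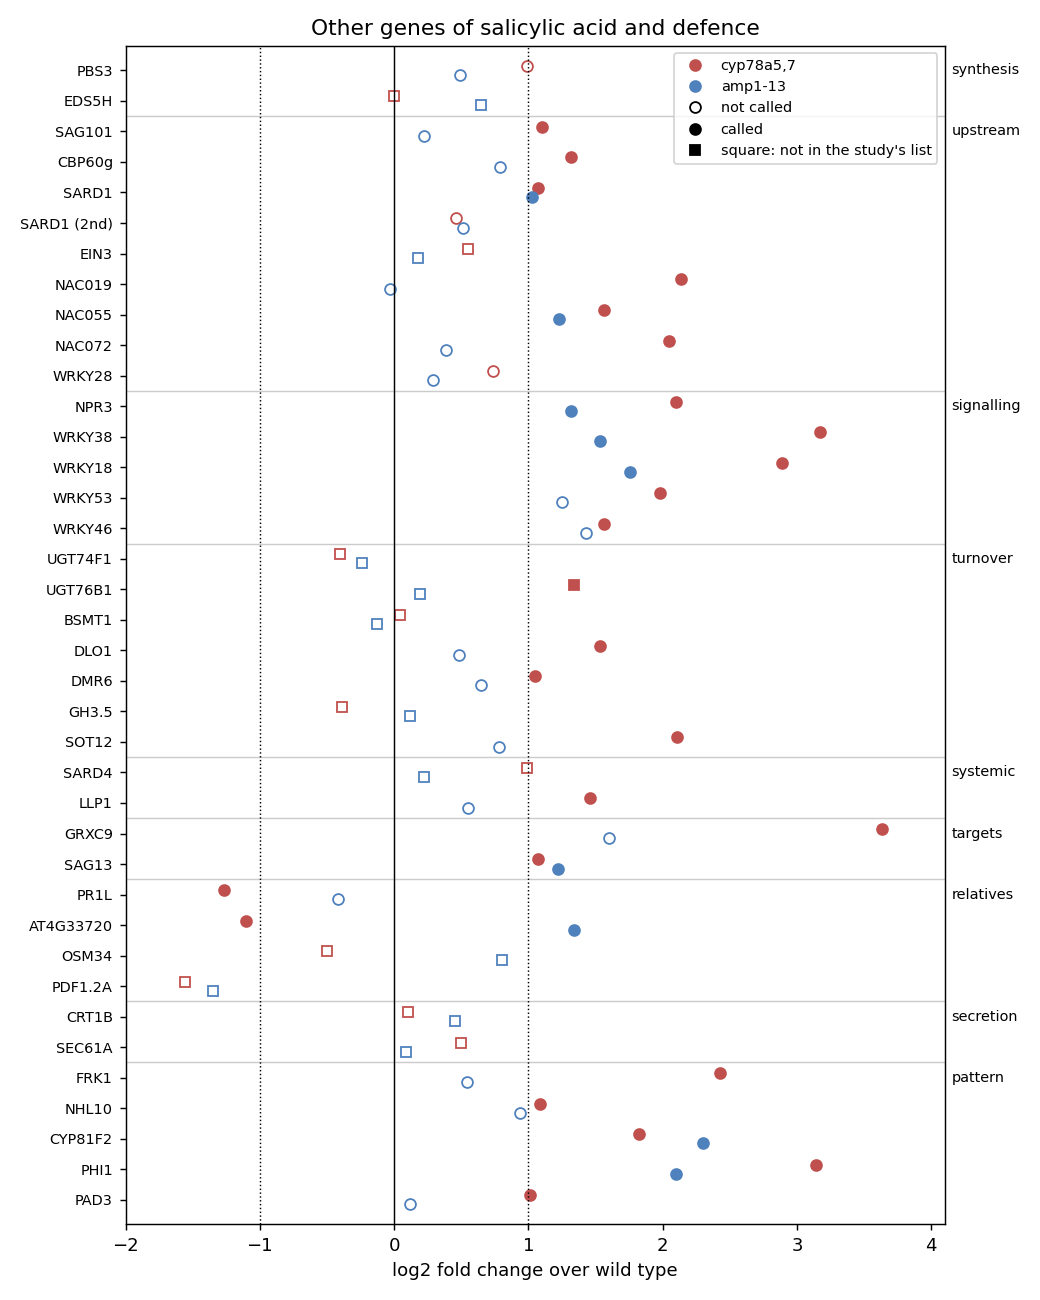
Log2 fold change over wild type of the 38 probe sets of the other lists, red for cyp78a5,7 and blue for amp1-13, filled where called, squares for the 11 probe sets outside the study's cyp78a5,7 list and dotted lines at 2-fold. Most listed genes lie right of 0 in both mutants, PR1L lies at -1.27 in cyp78a5,7, and the squares lie around 0 with UGT76B1 as the 1 that is filled. Absence from the list by itself favours small changes of the squares in cyp78a5,7.

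Probe sets whose pattern was most like the PR genes were taken from 5209 with 1 annotated gene and a mean signal of at least 50, by the correlation over the 9 arrays with the mean standardized log2 value of PR1, PR2 and PR5. This measure follows the difference between genotypes and is a description. The 6 highest were AT2G25510 (0.975), the mitochondrial gene ccb382 (0.967), AT2G39360 (0.966), AT1G66880 (0.958), EXO (0.955) and AT2G18690 (0.953). Mean signals of AT2G18690 were 1306 ± 190.0 in cyp78a5,7, 661.0 ± 98.6 in amp1-13 and 170.5 ± 14.4 in wild type (SD, n = 3 each). For ccb382, which is outside the list, they were 190.8 ± 7.69 in cyp78a5,7, 181.8 ± 16.7 in amp1-13 and 106.6 ± 10.6 in wild type (SD, n = 3 each). In all 6 the mean of cyp78a5,7 was the highest and that of wild type the lowest.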

How the data were processed

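Per the labels, total RNA of 9 samples was hybridised to single-colour ATH1 arrays. The deposited intensity values are MAS5 signals on a linear scale (version not given in the sources used here), each array scaled to a mean of 100.0 without 2% of values at either end. The study itself worked from RMA values, which cannot be rebuilt from summarized signals. Control probe sets (64) were removed. An offset of 16 was added, log2 values were quantile normalized, and limma 3.58.1 in R 4.3.3 was fitted to the 9 arrays with genotype as the sole term (6 residual and 2.692 prior degrees of freedom), two-sided, with Benjamini-Hochberg adjustment over 22746 probe sets. Figures used matplotlib 3.10.9. The fit was tested on simulated data.

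Annotation named 1 gene for 13513 probe sets, several for 503, and the study's list 813 more. The list's fold changes and p-values were not used. The 5 genes and all lists were chosen with earlier results of these data known. Named genes were the 5, called list members (up to 4 per direction and list), 11 regulators and relatives picked by name, and the 6 most alike probe sets; other list members are examples chosen after their values were seen. Gene sequences were not analysed here, and probes shared by related genes were not separated. Alternatives were unnormalized values, arrays centred at their 75th percentile, offsets of 0 and 64, removal of the dimmest 30%, pairwise fits, a replicate block, trended or robust variances, and omission of single arrays. With 3 arrays per genotype, their number limits the precision.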

Additional observations from a re-analysis of the deposited data

How the results depend on the processing

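No setting reversed the direction of a called change among the 5 genes or the other lists. With an offset of 64, the number of the 5 genes called higher was 3 in cyp78a5,7 and 1 in amp1-13 over wild type, and 1 in cyp78a5,7 over amp1-13. Of the other lists, 11 probe sets were then called higher and 1 lower in cyp78a5,7, 5 higher in amp1-13, and 1 lower in cyp78a5,7 than in amp1-13. That last count was also 1 with no offset and 1 with the replicate block, which changed no other count by over 1.5 times. With the block WRKY38 lost both calls that involve amp1-13 (limma adjusted p = 0.0624 over wild type and 0.0536 between the mutants) and OSM34 lost its call (0.0667), while WRKY46 (0.0226) and GRXC9 were called in amp1-13, and WRKY18 and PHI1 between the mutants. Same-numbered arrays correlated in their deviations at -0.119 to 0.161 and other arrays at -0.174 to 0.247, and 5 of 9 arrays correlated best with their own number. These values do not settle whether the numbers mark pairs, and the main fit did not take them as pairs. Without the dimmest 30%, 10 probe sets of the other lists were called higher in cyp78a5,7 than in amp1-13. When 1 array was left out, the called counts of the 5 genes were 5 in every fit for cyp78a5,7, 2 to 3 for amp1-13 and 3 in every fit between the mutants, where PR1 took the place of ICS1 without cyp78a5,7 replicate 1. Those of the other lists were 19 to 23 higher and 0 to 2 lower in cyp78a5,7, where the lower count was 0 without wild type replicate 3 and 1 without wild type replicate 1 or cyp78a5,7 replicate 1 or 3, 3 to 11 higher in amp1-13, and 2 to 9 higher and 1 to 3 lower between the mutants. In cyp78a5,7 over wild type, SARD1, DMR6, SAG13, PR1L, AT4G33720, NHL10 and PAD3 each lost the call in 1 to 3 of the 9 fits without 1 array. The cause of these shifts was not tested. Dim signals limit PR1, PR2, PR5 and the 10 other probe sets whose wild type mean lies under the offset.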
